A study of Homo sapiens with 10 samples.

Results

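The 10 genes described here were the immediate early transcription factor genes FOS, FOSB, FOSL1, JUN, JUNB, EGR1, EGR2 and EGR3, together with IER2 and the phosphatase gene DUSP1. They were chosen by name, with earlier results of these data known. All 10 were found in both deposited count tables among 59453 genes, and all 10 passed the filter on low counts. The libraries came from HAP1, a human line with a nearly haploid genome that was established from the chronic myeloid leukaemia line KBM-7. The untreated groups were wild type (WT, clones 2 and 11), MUTYH knockout (clones 7 and 8), OGG1 knockout (clones 1 and 22) and double knockout (DKO, clones 4 and 14), the last without either DNA glycosylase. OGG1 removes 8-oxoguanine, an oxidised guanine, from DNA, and MUTYH removes the adenine mispaired with it. A last group, WT with H2O2, held the same WT clones 2 and 11 harvested 24 h after exposure to 100 µM H2O2. The sample descriptions place the harvest 24 h post treatment, whereas the methods of the study state a treatment lasting 24 h. Whether the H2O2 was removed before harvest is not stated. Each group had 2 libraries, 1 per clone, and both DKO clones were made from 1 OGG1 knockout clone, so the DKO group does not hold independent losses of OGG1. The study lists that parent as its OGG1 clone 2, whose product number ends in 22, like the label of OGG1 knockout clone 22 here. All knockouts were made by CRISPR-Cas9, and no knockout library was treated with H2O2.

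Immediate early genes are transcribed within minutes of a growth factor or stress signal, without new protein synthesis, and their transcripts are usually short lived. FOS and JUN proteins pair through leucine zippers to form the transcription factor AP-1, whereas EGR proteins bind GC-rich sites through zinc fingers. MAP kinases switch these genes on through serum response factor and its ETS partners or through CREB and ATF factors. Dual specificity phosphatases such as DUSP1, and the Sprouty proteins, are induced by the same kinases and in turn restrain them. Libraries taken 24 h after the exposure therefore show late levels and not the first wave of induction.

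Total counts per library ranged from 22225091 to 22674964, so depth was close to even. Mitochondrially encoded genes took 3.38% and 2.995% of the counts in treated clones 2 and 11, below 5.02% and 5.14% in the same clones untreated, and their part in the treatment results was not tested. Among untreated libraries the share was highest in DKO clone 4, at 7.46%, and 4.25% in DKO clone 14. OGG1 had 275 and 295 counts in WT. The OGG1 knockout had 27 in clone 1 and 254 in clone 22, and DKO had 215 and 223. MUTYH had 89 to 105 counts in WT, 83 to 101 in MUTYH knockout and 50 to 106 in DKO. Gene counts do not show whether a transcript carries a small deletion, and the level of the targeted transcript was low in 1 of the 6 knockout libraries. Loss of the proteins was checked by the study in each clone with mass spectrometry, which is not analysed here. Of 9 haematopoietic lineage markers, MPO and CD3E had 0 counts in every library and PTPRC, which encodes CD45, had at most 3, so the line held little transcript typical of blood cells. The summed count of the 9 markers was 12 to 21 in WT, 11 to 13 in MUTYH knockout, 25 to 35 in OGG1 knockout, 27 to 36 in DKO and 17 to 26 in WT with H2O2. The highest of them, CD34, a marker of blood progenitors, had 3 and 4 counts in WT, 9 and 23 in OGG1 knockout and 23 and 15 in DKO, and its part in the results below was not tested.

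Per length of transcript, the 10 genes fell into an abundant and a scarce set in untreated WT. FOSL1, which encodes the FOS family protein FRA-1, had the highest level with 9.23 ± 3.63 RPKM (counts scaled by library size and exon length, mean ± SD, n = 2), followed by JUNB with 8.60 ± 2.92 RPKM, IER2 with 6.13 ± 1.53 RPKM, DUSP1 with 4.10 ± 0.595 RPKM, EGR1 with 3.82 ± 0.631 RPKM and JUN with 2.50 ± 0.901 RPKM. The clones of FOSL1 and JUNB overlapped, as did those of JUNB and IER2 and those of DUSP1 and EGR1, whereas both IER2 libraries lay above DUSP1 and both EGR1 libraries above JUN. FOS followed at 0.501 ± 0.0790 RPKM, below the lowest JUN library at 1.86 RPKM. FOSB at 0.231 ± 0.0563 RPKM and EGR3 at 0.189 ± 0.0312 RPKM overlapped each other, and EGR2 was the lowest at 0.0777 ± 0.00853 RPKM. In WT with H2O2, FOSL1 was again the highest at 20.6 ± 7.93 RPKM and EGR1 stood at 10.4 ± 6.16 RPKM beside JUNB at 10.4 ± 0.383 RPKM. Lengths were the summed exons of each gene in GENCODE release 44. Since the strand setting of the counting is not stated, reads of FOSB and of ERCC1, and of JUNB and HOOK2, which overlap on opposite strands, cannot be separated with certainty. EGR2, EGR3, IER2 and DUSP1 each overlap annotated genes without a symbol, those at EGR2 on the same strand. On GRCh38, GENCODE places EGR1 at chr5:138465479-138469303, FOS at chr14:75278826-75282230, JUN at chr1:58776845-58784048 and EGR2 at chr10:62811996-62819167.

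The RefSeq promoter table for GRCh38.p14 held windows, from 250 bases before to 50 bases after the start, for 8 of the 10 genes, with FOSL1 and EGR3 not matched. The stretches below are shown because they hold the elements through which these genes are known to be switched on. Capitals mark the motif, each line reads 5′ to 3′ on the strand of the gene, and both strands were searched. The EGR1 stretches overlap each other, and that of EGR2 lies before the RefSeq start and inside the longer span that GENCODE gives the gene.
EGR1, CArG box, chr5:138465364-138465393, plus strand: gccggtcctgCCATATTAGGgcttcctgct
EGR1, CArG box, chr5:138465386-138465415, plus strand: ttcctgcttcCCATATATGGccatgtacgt
EGR2, CArG box, chr10:62816418-62816447, minus strand: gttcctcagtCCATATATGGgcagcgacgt
FOS, CRE core, chr14:75278752-75278781, plus strand: tggttgagcccgTGACGTttacactcattc
FOSB, CRE core, chr19:45467924-45467953, plus strand: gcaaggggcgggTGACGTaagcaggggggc
DUSP1, CRE core, chr5:172771303-172771332, minus strand: tggcagggcgggTGACGTcaccgccccgtc
JUN, TGACATCA, chr1:58784096-58784125, minus strand: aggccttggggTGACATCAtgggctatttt

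The CArG box, the binding sequence of serum response factor, was found 105 and 83 bases before the start of EGR1. It also lay 71 bases before that of EGR2, and in no window of the other genes. Of all 35116 promoter windows of this length, 1.29% held it. Sequence outside the windows was not searched, so an element further from a start would be missed. The CRE core, searched as TGACGT and its reverse complement ACGTCA and known as a target of CREB and ATF factors, was present in the windows of 5 genes (DUSP1, EGR1, EGR2, FOS and FOSB) and in 7.98% of all windows. The JUN window held TGACATCA, the variant known from its own promoter, 67 bases before the start, against 2.61% of all windows. GCGNGGGCG, the letters of an EGR site, occurred in the windows of EGR1 and EGR2 and in 9.43% of all windows, and TATAAA in those of DUSP1, FOS, FOSB and JUNB and in 11.5%. TGACTCA, the AP-1 site, read on either strand, was in 4.95% of all windows and in no window of these 8 genes. These matches describe the letters in the windows, and a full palindromic CRE matches the core on both strands.

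Exposure to H2O2 was compared with no treatment in the WT clones, the question being how transcription in repair-proficient cells differed 1 day after oxidative stress. A gene was called when its log2 fold change exceeded 1 in size and its unadjusted P did not exceed 0.05, the criterion of the study. Of the 10 genes, 6 were called higher and 0 lower: EGR3, EGR2, JUN, EGR1, FOS and FOSL1. Among all 16997 genes tested, 1.75% were called, and 0.741% were called higher. In a bulk library, more cells that express a gene and more RNA per cell cannot be told apart. The median log2 fold change was 1.23 over the 10 genes, against a median near 0 (0.0002) over all genes. JUNB, IER2, DUSP1 and FOSB were not called.

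JUN, the core partner of AP-1, stood at 11.4 and 6.74 CPM (counts scaled to a common library size) in untreated clones 2 and 11 and at 21.8 and 28.4 CPM after treatment. Both treated libraries lay above every other library of the series for this gene, the highest of which had 12.5 CPM. Its log2 fold change was 1.47 (SE 0.31). FOSL1 stood at 22.3 and 12.6 CPM untreated and at 49.4 and 28.3 CPM treated. Clone 2 stood above clone 11 both without and with treatment, and the groups did not overlap (log2 fold change 1.15, SE 0.38). FOS was scarce, with 1.77 and 1.42 CPM untreated and 2.55 and 5.37 CPM treated, which rests on 32 to 122 counts. Its treated libraries were both above the untreated ones, and clone 11 stood the highest (log2 fold change 1.30, SE 0.45). FOSB showed 1.06 and 1.51 CPM untreated and 1.64 and 2.86 CPM treated, without overlap and without a call (log2 fold change 0.80, SE 0.43).

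The EGR genes encode zinc finger factors of which EGR1 is the best known in the growth and stress response. EGR1 was measured at 13.4 and 10.6 CPM in untreated clones 2 and 11 and at 18.8 and 46.1 CPM after treatment. Treated clone 11 had the highest EGR1 level of all 10 libraries, and treated clone 2 the next highest (log2 fold change 1.43, SE 0.43). EGR2 had 7 and 6 counts untreated and 23 and 43 counts treated, or 0.311 and 0.266 CPM against 1.05 and 1.89 CPM. No untreated WT library came near the treated ones for EGR2, although the values rest on few reads (log2 fold change 2.32, SE 0.50). EGR3 had 24 and 19 counts untreated and 51 and 170 counts treated, with 1.06 and 0.842 CPM against 2.32 and 7.48 CPM. It had the largest fitted change of the 10 genes, and the wider spread came from treated clone 11 (log2 fold change 2.35, SE 0.62).

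JUNB, a FOS partner that often tempers JUN, had 19.5 and 11.96 CPM untreated and 18.6 and 19.5 CPM treated (log2 fold change 0.27, SE 0.27). Both treated JUNB libraries lay close to the higher untreated one. IER2, a small nuclear protein gene of the immediate early class, had 22.2 and 15.6 CPM untreated and 16.6 and 20.4 CPM treated (log2 fold change -0.04, SE 0.25). DUSP1, which dephosphorylates p38, JNK and ERK, had 9.09 and 7.40 CPM untreated and 13.1 and 9.95 CPM treated (log2 fold change 0.48, SE 0.25). Both treated DUSP1 libraries were above both untreated ones, but the distance was short. Counted in this way, 8 of the 10 genes had treated libraries that lay wholly above the untreated ones, against 21.5% of all genes tested.

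**Figure D1:**
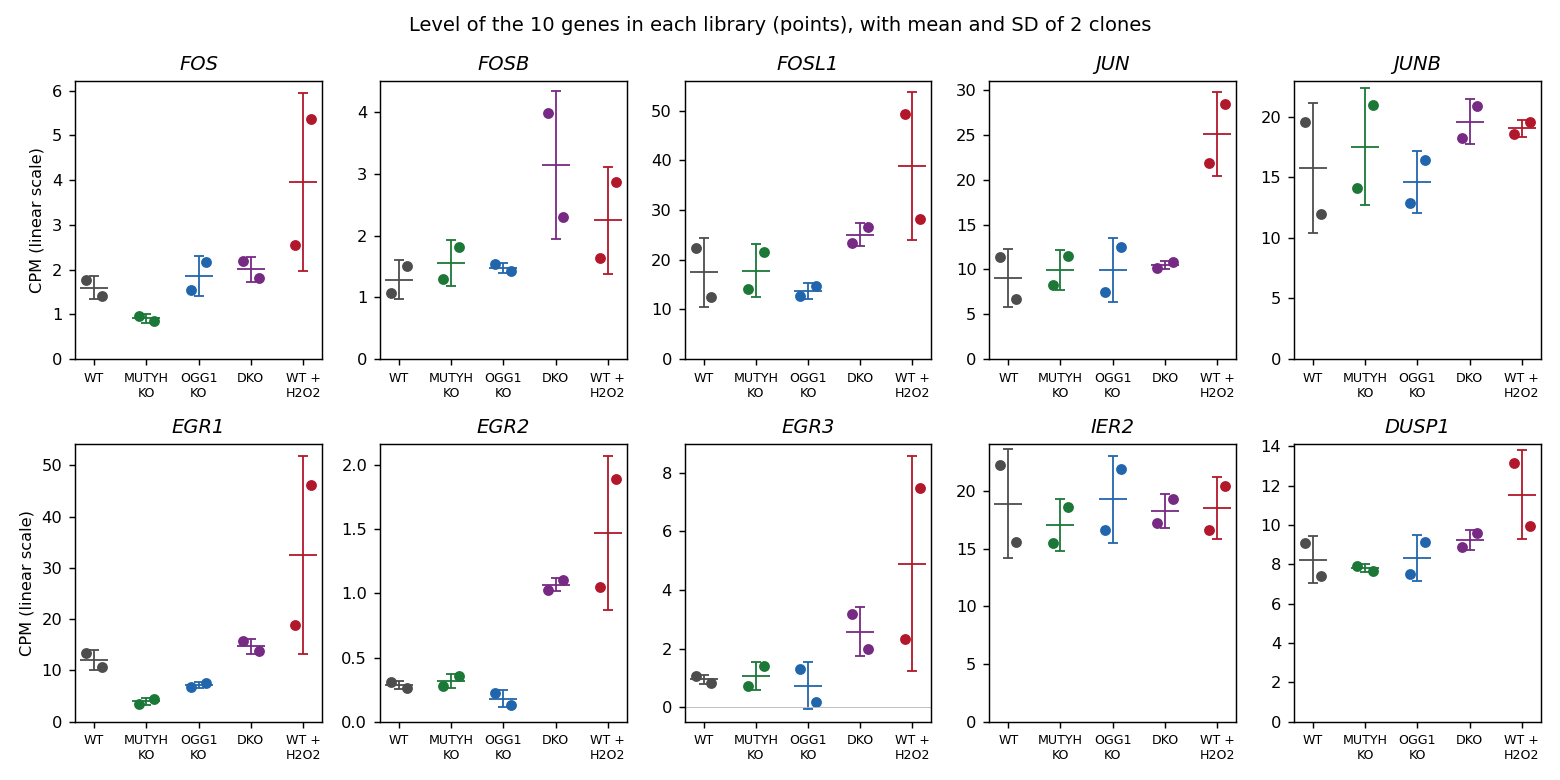
Level of each of the 10 genes in CPM on a linear axis in the 5 groups. Points are libraries (within a group, the lower clone number on the left), the horizontal bar is the mean and the error bar the SD of 2 clones. EGR1 was lowest in MUTYH knockout (3.46 and 4.48 CPM) and highest in WT with H2O2 (18.8 and 46.1 CPM), whereas the groups of IER2 overlapped.

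After Benjamini-Hochberg (BH) adjustment over all genes, 0 of the 10 genes passed at 0.05 in edgeR without a block, where the smallest adjusted p was 0.638, while 6 had an unadjusted P of at most 0.05. The Wald test of DESeq2 also called 6, of which 1 passed adjustment (JUN, adjusted p = 0.0102). Treated and untreated libraries shared clones, and with clone as a replicate block edgeR called FOS, FOSL1, JUN, EGR1, EGR2 and EGR3, and 5 genes passed the adjustment, against 1.18% of all genes that passed it as higher. Their adjusted p values in this paired edgeR fit were 0.00144 for FOSL1, 0.00752 for JUN, 0.0186 for EGR3, 0.0289 for EGR2 and 0.0305 for EGR1, with 0.0821 for FOS. In the paired fit, the log2 fold changes were 1.15 ± 0.14 (SE) for FOSL1, 1.49 ± 0.23 for JUN, 2.19 ± 0.41 for EGR3, 2.29 ± 0.48 for EGR2 and 1.31 ± 0.28 for EGR1. The block left 1 residual degree of freedom.

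The size of the change differed between the WT clones. In clone 11 the treated over untreated ratio was 8.89 for EGR3, 7.12 for EGR2, 4.36 for EGR1, 4.22 for JUN and 3.79 for FOS. In clone 2 the same ratios were 2.18, 3.37, 1.41, 1.92 and 1.44. FOSL1 was the exception among the called genes, with ratios of 2.22 in clone 2 and 2.25 in clone 11. The ratio was larger in clone 11 for 9 of the 10 genes, all but DUSP1 (1.45 in clone 2 and 1.34 in clone 11), and for 53% of all genes. With 1 library per clone and condition, this difference between clones has no replicate check. Without treated clone 11, 3 genes were called (FOSL1, EGR2 and EGR3), and the log2 fold changes fell to 1.27 for JUN, 0.65 for EGR1 and 0.67 for FOS. Without treated clone 2, FOSL1 lost its call at 0.68, and without untreated clone 11 neither FOSL1 (0.80) nor FOS (1.15) was called.

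**Figure D2:**
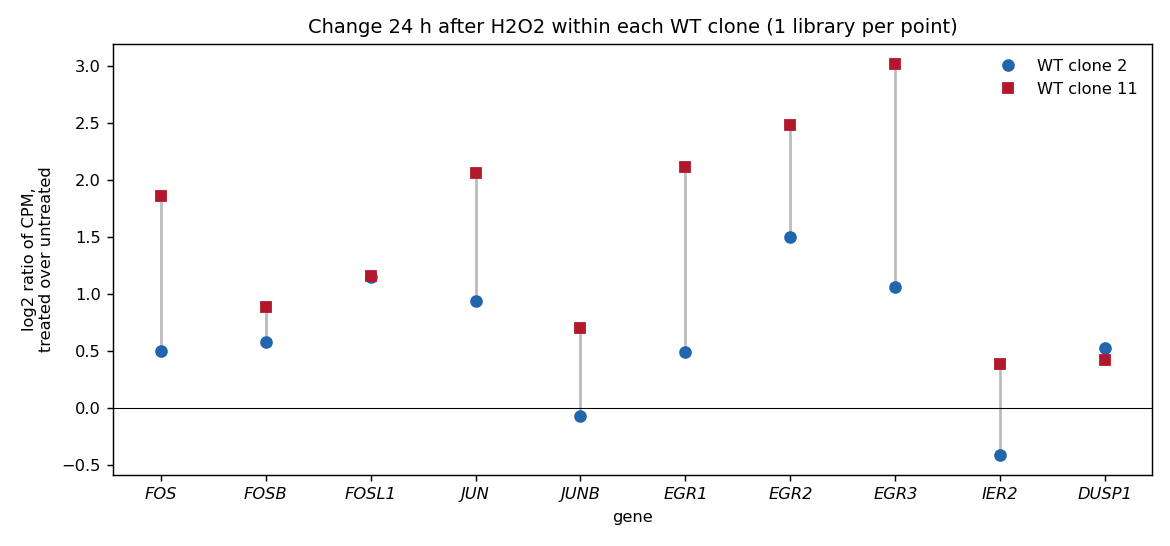
Log2 ratio of CPM, treated over untreated, within WT clone 2 (circles) and WT clone 11 (squares), with 1 library per condition and no error bar. FOSL1 moved alike in both clones, EGR3 and EGR1 moved further in clone 11, and JUNB and IER2 lay on opposite sides of 0. JUNB in clone 2 was close to 0.

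Loss of a glycosylase was compared with WT to ask how gene expression differed without 1 or both repair enzymes in unstressed cells. All 3 knockout comparisons used the same WT libraries and are given side by side. EGR1 was the 1 gene of the 10 whose libraries did not overlap between any of the 4 genotypes, which held for 0.604% of all genes. Its level was 13.4 and 10.6 CPM in WT, 3.46 and 4.48 CPM in MUTYH knockout, 6.73 and 7.64 CPM in OGG1 knockout and 15.7 and 13.7 CPM in DKO. The order was MUTYH knockout, OGG1 knockout, WT and DKO, although WT clone 2 and DKO clone 14 nearly touched, and EGR1 was not called in DKO against WT (log2 fold change 0.30, SE 0.24).

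In MUTYH knockout, EGR1 was the 1 gene of the 10 called, lower with a log2 fold change of -1.60 (SE 0.25), while 1.19% of 17881 genes were called. The edgeR BH adjusted p was 0.9997, the DESeq2 adjusted p was 0.000139, and edgeR with the library split described below as a block gave 0.381. FOS also stood lower, at 0.970 and 0.842 CPM in MUTYH knockout against 1.77 and 1.42 CPM in WT, without a call (log2 fold change -0.82, SE 0.35). The other 8 genes had log2 fold changes from -0.15 for IER2 to 0.27 for FOSB.

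In OGG1 knockout 0 of the 10 genes were called by edgeR, by edgeR with the block or by DESeq2, beside 1.67% of all genes, and 1 had an unadjusted P of at most 0.05 in each. That gene was EGR1, at a log2 fold change of -0.74 (SE 0.24). EGR3 differed widely between the OGG1 knockout clones, with 29 counts in clone 1 and 4 in clone 22, and its log2 fold change was -0.35 with an SE of 0.79. Without clone 1, EGR3 was called lower (-2.40). EGR2 had 5 and 3 counts in these clones.

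In DKO, EGR2 and FOSB were called higher than in WT, 2 of 10 genes beside 1.77% of all genes. EGR2 had 23 and 25 counts in DKO, against 7 and 6 in WT, 6 and 8 in MUTYH knockout and 5 and 3 in OGG1 knockout. Both DKO libraries thus held more EGR2 reads than any other untreated library (log2 fold change against WT 1.87, SE 0.45). FOSB had 3.99 and 2.29 CPM in DKO clones 4 and 14 against 1.06 and 1.51 CPM in WT (log2 fold change 1.29, SE 0.40). The FOSB call was lost without WT clone 2 (log2 fold change 1.05) or without DKO clone 4 (0.82), the library with the highest mitochondrial share, whose part in the FOSB result was not tested. EGR3 stood at 3.18 and 1.98 CPM in DKO, above all other untreated libraries, of which the highest had 1.42 CPM, and was not called (log2 fold change 1.44, SE 0.75). Libraries of DKO lay above those of WT for 6 of the 10 genes, against 13.1% of all genes. The edgeR BH adjusted p was 1 for each of the 10 genes, and 0 passed in DESeq2.

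The DKO clones were also compared with each single knockout. Against MUTYH knockout, 4 of 10 genes were called higher, beside 1.99% of all genes: EGR1 with a log2 fold change of 1.89 (SE 0.25), EGR2 with 1.74 (SE 0.44), FOS with 1.15 (SE 0.35) and FOSB with 1.02 (SE 0.40). For EGR1 the BH adjusted p was 0.216 in edgeR, 0.0916 in edgeR with the library split as a block and 1.53e-07 in DESeq2. DKO libraries lay above MUTYH knockout libraries for 7 of the 10 genes, against 13.6% of all genes. Without MUTYH knockout clone 8 or without DKO clone 4, FOS and FOSB lost their calls and 2 genes were left, and FOSB also lost its call without MUTYH knockout clone 7 (0.80). FOS had 2.19 and 1.81 CPM in DKO and 0.970 and 0.842 CPM in MUTYH knockout, and FOSB had 3.99 and 2.29 CPM against 1.29 and 1.82 CPM.

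Against OGG1 knockout, 3 of 10 genes were called higher in DKO, beside 1.44% of all genes: EGR2 with a log2 fold change of 2.54 (SE 0.48), EGR1 with 1.03 (SE 0.24) and FOSB with 1.09 (SE 0.40). DKO libraries lay above those of OGG1 knockout for 6 of the 10 genes, against 12.4% of all genes. Without DKO clone 4, 1 gene was called (EGR2), with EGR1 at 0.92 and FOSB at 0.62. FOSB also lost its call without either OGG1 knockout clone, and without clone 1 EGR1 stood at 0.95 and EGR3 was called (3.83). The edgeR BH adjusted p was 1 for each of the 10 genes, and the smallest DESeq2 adjusted p was 0.204 for EGR1. FOSL1 had 23.4 and 26.7 CPM in DKO and 12.6 and 14.8 CPM in OGG1 knockout, without a call because its log2 fold change was 0.87 (SE 0.31).

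Whether the loss of MUTYH was accompanied by a different change with and without OGG1 was tested by the interaction, (DKO minus OGG1 knockout) minus (MUTYH knockout minus WT). EGR1 fell by 1.60 on the log2 scale from WT to MUTYH knockout and was higher by 1.03 from OGG1 knockout to DKO, and the interaction was 2.63 (SE 0.34). EGR2 gave 2.41 (SE 0.69). These were the 2 of 10 genes called, beside 2.0% of all genes. The BH adjusted p of EGR1 was 0.811 in edgeR and 3.48e-07 in DESeq2, where EGR2 was not called. EGR3 was called as well without OGG1 knockout clone 1 (3.66), and FOSL1 without WT clone 11 (1.20) or MUTYH knockout clone 8 (1.18). IER2, DUSP1, JUN and JUNB gave values between -0.05 and 0.27.

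**Figure D3:**
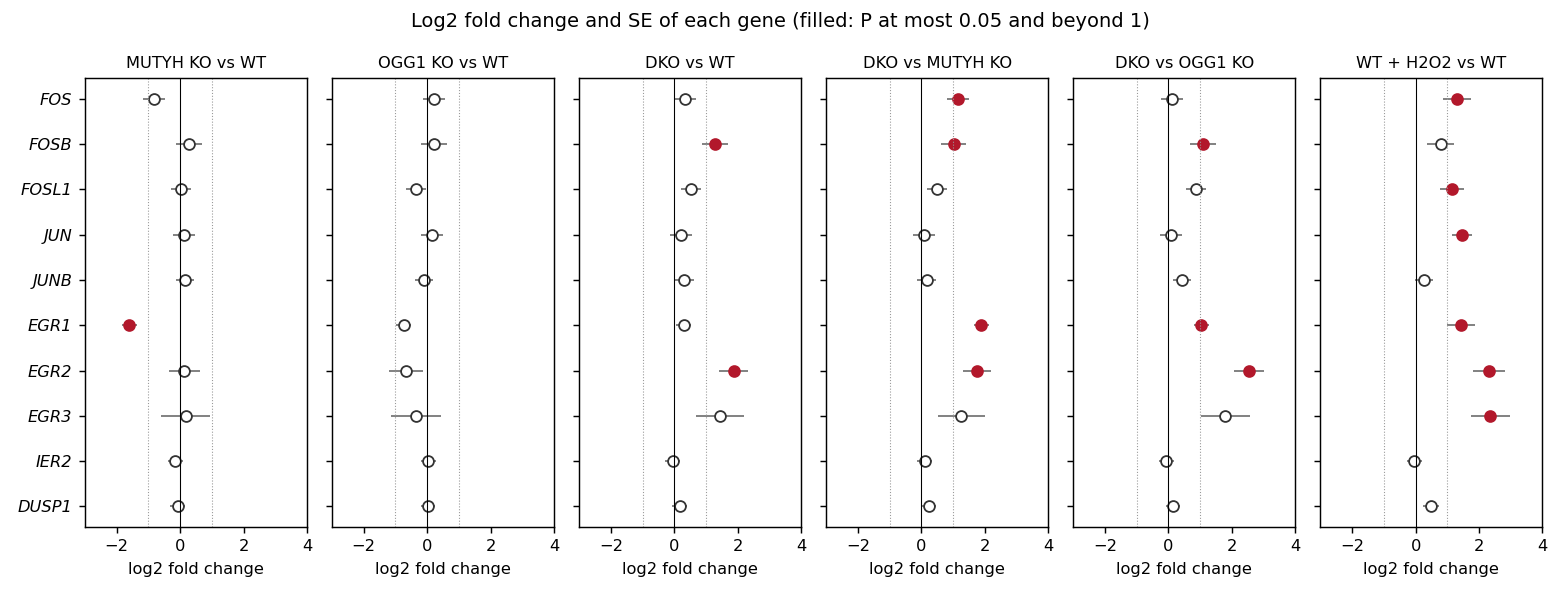
Log2 fold change (points) and SE (bars) of the 10 genes in 6 comparisons. Filled points were called, and dotted lines mark 1 and -1. EGR1 was called lower in MUTYH knockout (-1.60), EGR2 was called higher in each comparison of DKO, and 6 genes were called higher with H2O2.

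JUN, JUNB, IER2 and DUSP1, like FOSL1 and EGR3, were called in no comparison of genotypes by edgeR with all libraries and no block. JUN ranged from 6.74 to 12.5 CPM over the 8 untreated libraries, JUNB from 11.96 to 20.9 CPM, IER2 from 15.5 to 22.2 CPM and DUSP1 from 7.40 to 9.61 CPM. Much of the range in JUN, JUNB, IER2 and FOSL1 lay between clones of 1 genotype. The first principal component of the untreated libraries, taken over all genes after each genotype was centred, held 49.9% of the variance and put clone 2 of WT, clone 8 of MUTYH knockout, clone 22 of OGG1 knockout and clone 14 of DKO on 1 side. The mitochondrial share on that side was 5.02%, 3.75%, 4.38% and 4.25%, below 5.14%, 6.10%, 6.59% and 7.46% in the sister clones, and its part in these differences was not tested. On that side JUN was 1.40-fold, FOSL1 1.37-fold, JUNB 1.36-fold and IER2 1.26-fold higher on average than in the sister clone, and each was higher in all 4 genotypes. The same held for 24.4% of all genes, so 4 of 10 genes is a description with no test, and the component was itself computed from these libraries. With the split as a block, the edgeR calls kept their direction. FOSB against MUTYH knockout went to 0.97, EGR3 was called higher in DKO than in OGG1 knockout (log2 fold change 1.85), and FOSL1 in DKO against WT stood at 0.57 (SE 0.19) without a call.

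**Figure D4:**
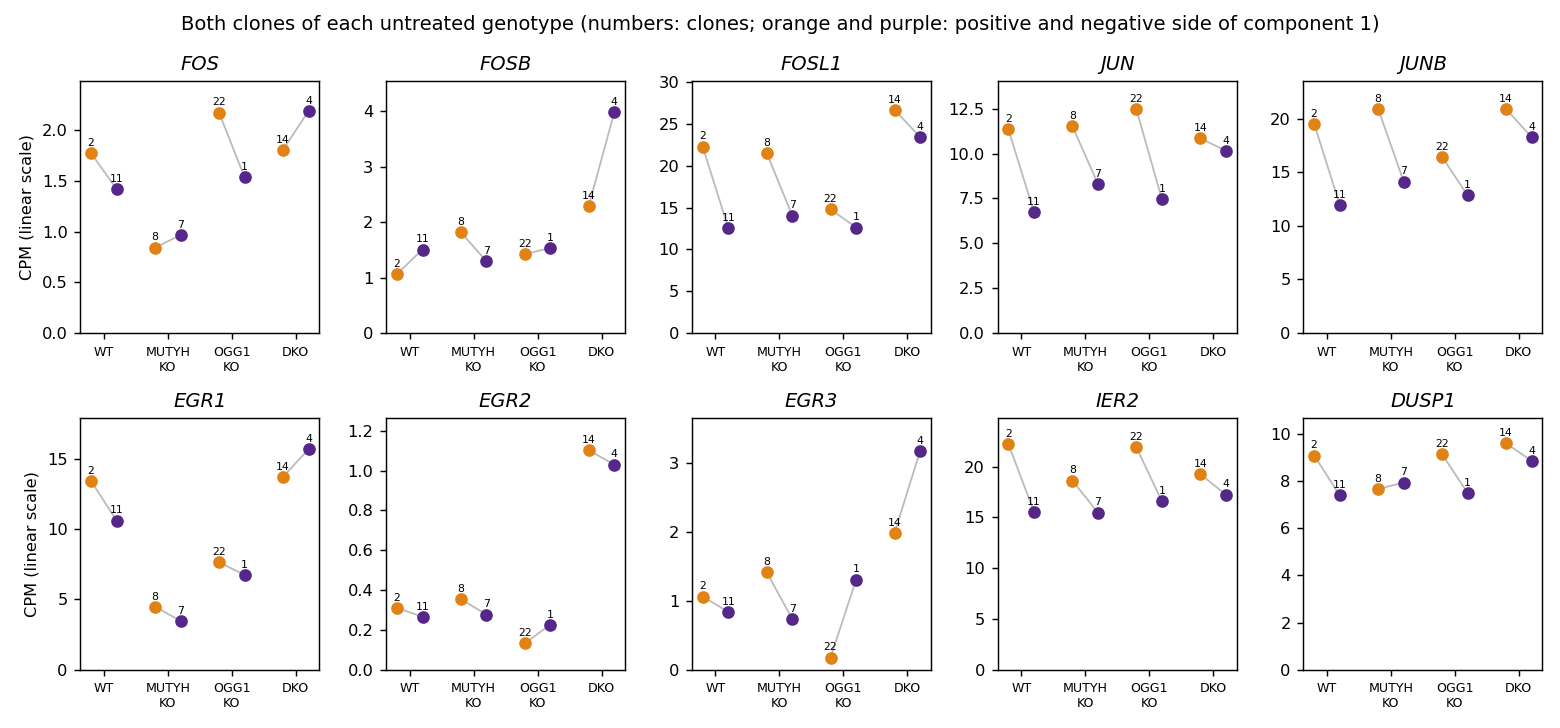
CPM on a linear axis of both clones of each untreated genotype, joined by a line and labelled with the clone number, 1 library per point. Orange and purple mark the sides of the first principal component. FOSL1, JUN, JUNB and IER2 were higher in the orange clone of every genotype, and EGR2 was above 1 CPM only in the DKO clones.

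Other genes of the pathway came from lists of 95 genes. With H2O2, 85 of these were tested, and 10 were called higher and 0 lower. Of all genes, 1.75% were called in either direction and 0.741% were called higher. In edgeR without a block, 0 of the 85 passed BH adjustment. In DESeq2, 2 AP-1 subunits or partners, 1 other immediate early gene and 0 feedback inhibitors passed it. With the replicate block, which left 1 residual degree of freedom, 12 were called higher and 13 passed BH adjustment in edgeR. Of all 16997 genes in that fit, 203 were called higher and 1.18% passed adjustment as higher. Feedback inhibitors of MAP kinase signalling gave 4 calls of 13 genes tested, with a median log2 fold change of 0.84. SPRY4, a Sprouty protein that limits receptor signalling to ERK, went from 3 and 5 counts in untreated clones 2 and 11 to 29 and 55 (log2 fold change 3.35, SE 0.56). The ERK phosphatase gene DUSP6 had 3 and 16 counts untreated and 23 and 97 treated (2.64, SE 0.95). DUSP4, a nuclear phosphatase of ERK and JNK, had 73 and 58 counts untreated and 147 and 248 treated (1.59, SE 0.34). ERRFI1, an inhibitor of the EGF receptor, had 79 and 143 counts untreated and 154 and 373 treated (1.24, SE 0.50). With the replicate block, the 7 inhibitors that passed BH adjustment in edgeR were these 4, DUSP8, SPRY2 and SPRED2. Leaving out untreated clone 2 or treated clone 11 ended the calls of DUSP6 (1.88 and 1.30) and ERRFI1 (0.87 and 0.50), and without treated clone 11 the inhibitors called numbered 2.

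Among other AP-1 subunits and partners, 3 of 10 tested genes were called higher with H2O2 (median log2 fold change 0.07). FOSL2, the relative of FOSL1, had 33 and 66 counts untreated and 189 and 246 treated (2.14, SE 0.40). ATF3, a stress-induced repressor that dimerises with JUN, had 522 and 230 counts untreated and 1216 and 873 treated (1.48, SE 0.41), and the small MAF gene MAFF had treated over untreated ratios of 2.07 in clone 2 and 2.75 in clone 11 (1.25, SE 0.29). JUND had 1291 and 706 counts untreated and 1016 and 689 treated and was not called. Of 22 other immediate early genes, 3 were called higher (median 0.27): KLF10, a TGF-beta-induced repressor, with 1.36 (SE 0.21), the small GTPase gene RHOB with 2.35 (SE 0.45) from 5 and 7 counts to 34 and 28, and the kinase gene PLK2 with 1.99 (SE 0.73). PLK2 went from 141 to 682 counts in clone 2 and from 73 to 158 in clone 11, and its log2 fold change was 0.53 without treated clone 2 and 1.60 without untreated clone 11, both without a call. Without treated clone 11, 5 of these immediate early genes were called, since PLK3 (1.05) and BTG2 (1.63) joined them. BTG2, an antiproliferative p53 target, went from 720 to 2193 counts in clone 2 and from 726 to 584 in clone 11. ATF3 lost its call without either treated clone (1.18 without clone 2 and 1.73 without clone 11).

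No gene was called with H2O2 among the 8 activators around SRF, CREB1 and the ETS partners (median -0.01), the 20 upstream receptor and kinase genes (median 0.05), the 3 tested genes of the EGR and NAB list (median 0.18) or the 9 tested AP-1 target genes (median 0.002). These calls numbered 0 in edgeR, in edgeR with the replicate block and in DESeq2. At an unadjusted P of at most 0.05, edgeR gave 1 of the 20 upstream genes and 0 in the other 3 lists. Without untreated clone 2, 1 AP-1 target gene was called, AREG, which encodes an EGF receptor ligand and had 11 and 0 counts in untreated clones 2 and 11 and 24 and 3 in treated clones 2 and 11.

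**Figure D5:**
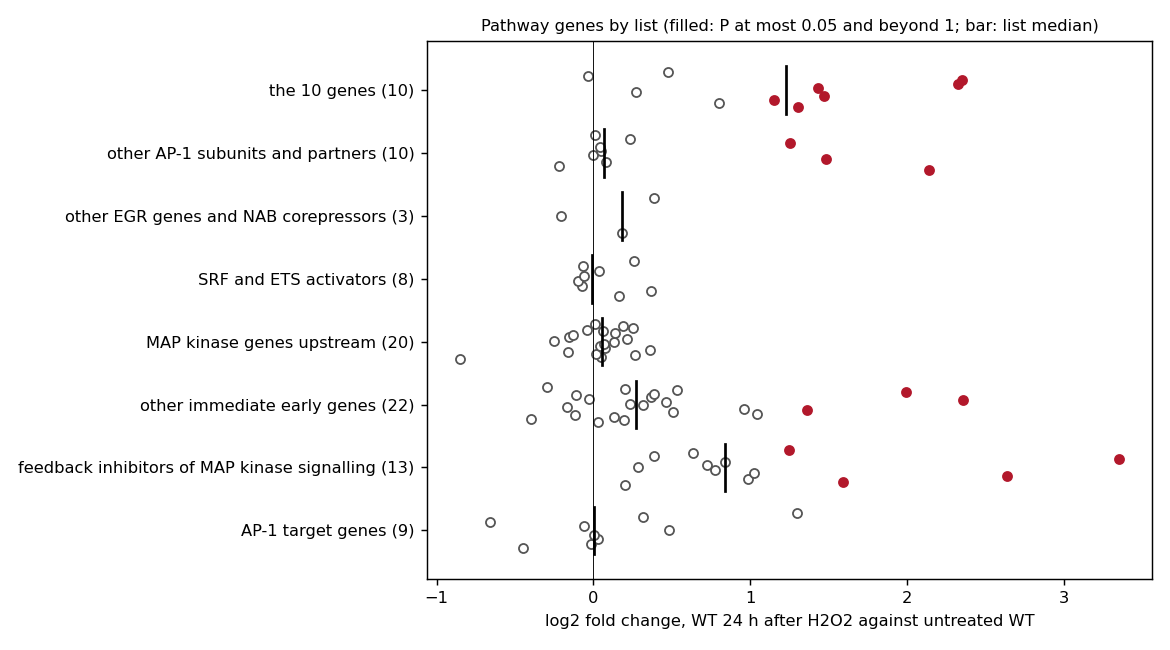
Log2 fold change with H2O2 of each tested gene in the 10-gene set and in 7 lists of related genes, with the number tested in parentheses. Filled points were called, and the bar is the list median. The called genes lay in 4 of the 8 rows, and the medians were 1.23 for the 10 genes and 0.84 for the feedback inhibitors.

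Between genotypes, 83 of the 95 genes were tested. In every genotype comparison and in the interaction, 0 of them passed BH adjustment in edgeR or DESeq2. The same held for edgeR with the library split as a block. In MUTYH knockout 1 was called, beside 1.19% of all genes, namely FOSL2, higher with 113 and 162 counts against 33 and 66 in WT (log2 fold change 1.49, SE 0.41). In OGG1 knockout 2 were lower, beside 1.67% of all genes: NR4A2, an orphan nuclear receptor, with 108 and 82 counts against 294 and 280 (-1.57, SE 0.47), and CD44, a hyaluronan receptor and AP-1 target, with 13 and 10 counts against 500 and 71 (-4.60, SE 1.52). In DKO 3 were higher than in WT and 1 was lower, beside 1.77% of all genes. FOSL2 had 131 and 110 counts in DKO clones 4 and 14 (1.29, SE 0.41), SPRY1 had 203 and 200 counts against 88 and 89 (1.19, SE 0.29), and SPRY4 had 56 and 17 against 3 and 5 (3.17, SE 0.93). EGFR, the EGF receptor upstream of this pathway, had 24 and 50 counts in WT and 0 in both DKO clones. In DKO it was at least 12.3-fold below the mean of the WT clones, against a floor of 3 counts per library. It also had 0 counts in MUTYH knockout clone 8, 11 in clone 7, and 12 and 5 in OGG1 knockout. Some of these calls rested on single clones. FOSL2 and SPRY4 in DKO lost theirs without WT clone 2 (0.87 and 2.85) or DKO clone 4 (1.13 and 2.04). CD44 in OGG1 knockout lost its call without WT clone 2 (-2.60) or either knockout clone (-4.82 and -4.41), and NR4A2 lost its call without clone 22 (-1.37). The number called in MUTYH knockout was 4 without WT clone 11, and 2 without MUTYH knockout clone 7 or clone 8. In OGG1 knockout it was 7 without clone 1, 0 without clone 22, 1 without WT clone 2 and 4 without WT clone 11, and in DKO it was 8 without WT clone 11.

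Against MUTYH knockout, DKO was higher in 2 of these 83 genes, beside 1.99% of all genes called: SPRY1 (1.24, SE 0.29) and SPRY2 (1.02, SE 0.27). Against OGG1 knockout, NR4A2 (1.19, SE 0.46), PLK2 (1.08, SE 0.34) and CD44 (3.77, SE 1.49) were higher in DKO and EGFR was lower, beside 1.44% of all genes called. With the floor of 3 counts per library, EGFR in DKO was at least 2.87-fold below the mean of the OGG1 knockout clones, which had 12 and 5 counts. CD44 had 298 counts in DKO clone 4 and 17 in clone 14, and without clone 4 the log2 fold change was 0.53 and 0 of these genes were called. NR4A2, PLK2, CD44 and EGFR also lost their calls without OGG1 knockout clone 1, NR4A2 and CD44 without clone 22, and EGFR without DKO clone 14. The interaction was called for SPRY2 (1.16, SE 0.39) and CD44 (6.13, SE 1.98). Without WT clone 2 neither was called. CD44 was not called without DKO clone 4 (2.89) or OGG1 knockout clone 22 (5.93), nor SPRY2 without MUTYH knockout clone 7 (0.98). The number called was 6 without WT clone 11 and 5 without OGG1 knockout clone 1. Against MUTYH knockout, SPRY2 lost its call without clone 7 of that knockout (0.84) or DKO clone 4 (0.99), and SPRY1 without MUTYH knockout clone 8 (0.93). The 8 activators around SRF gave 0 calls in each genotype comparison by edgeR and by DESeq2, with 1 of 8 at an unadjusted P of at most 0.05 in DKO against WT by each tool and 0 in the other 5 comparisons.

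The pattern of each gene with a mean of at least 1 CPM was set beside that of 14776 genes by Pearson correlation of log2 CPM over the 10 libraries, which share clones and include both treated ones. The closest gene to FOS was EGR1 (r = 0.922), and FOS was the second closest to EGR1 after SEL1L3 (r = 0.923). The closest to JUN were RTCA (r = 0.984), WARS1 (r = 0.963) and DDIT3 (r = 0.962). FOSL1 was closest to UFD1 (r = 0.967), JUNB to FAM27C (r = 0.946), EGR3 to SAMD4B (r = 0.946), FOSB to USP53 (r = 0.918), DUSP1 to GUF1 (r = 0.953) and IER2 to Z99572.1 (r = 0.940). Within the set, FOSL1 and DUSP1 (r = 0.887) and JUN and DUSP1 (r = 0.793) came next to FOS and EGR1, whereas FOSB and IER2 (r = -0.04) and EGR3 and IER2 (r = -0.07) lay near 0.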

How the data were processed

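RNA-seq libraries of 10 HAP1 samples were used. The authors aligned reads to GRCh38.p13 with HISAT2 2.2.1 and counted them per gene with featureCounts of Rsubread 2.2.6 against Ensembl release 103. The deposited values were raw counts per gene and library, not normalized, and the strand setting is not given in the sources used here. The untreated WT columns were identical in both tables and were used once. Whether the treated libraries were prepared together with the untreated WT libraries is not given in the sources used here. A part of preparation in the H2O2 results was not tested.

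The tests ran in edgeR 4.0.16 under R 4.3.3 (TMM factors, filterByExpr, quasi-likelihood F test, legacy=TRUE), with all genes fitted. The 8 untreated libraries shared 1 fit (17881 genes, 4 residual degrees of freedom) and the 4 WT libraries another (16997 genes, 2 residual degrees of freedom). CPM was TMM-normalized, and log2 CPM used a prior count of 2. P values were two-sided, BH adjustment covered all genes tested, and SE came from the F statistic. Within a group, libraries are separate clones, so P values of the fits without a block measure the spread between clones. With the replicate block, they measure how far the treatment change differed between the WT clones. With the library split as a block, they measure the spread left after the split. The DKO clones share 1 parent, and the H2O2 fit without a block ignores that its groups share clones. The floor of 3 counts covers counting error only, whereas SD and SE include the spread between clones. WT clone numbers pair treated with untreated libraries, since both came from the same clone (r = 0.681 across genes between the clone differences). Alternatives were DESeq2 1.42.0, other filters and scalings, blocks, and leaving out each library.

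Named genes were the 10 genes, the listed pathway genes called, the targeted genes and the genes of most similar pattern. The members and lists were chosen with earlier results of these data known.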

Additional observations from a re-analysis of the deposited data

Results flagged for a closer look

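The interaction of OGG1 and MUTYH loss stood out for EGR1, with a log2 value of 2.63, because EGR1 was lower in MUTYH knockout than in WT and higher in DKO than in OGG1 knockout. It also stood out for EGR2, with 2.41, which rests on 3 to 25 counts per library. The edgeR BH adjusted p was 0.811 for EGR1 and 1 for EGR2. With H2O2, JUNB was nearly level in WT clone 2, at -0.073 on the log2 scale, and higher by 0.70 in clone 11. IER2 changed in opposite directions, by -0.42 in clone 2 and by 0.39 in clone 11. The differences between clones for JUNB and IER2 were not tested, since each clone had 1 library per condition. No group held 4 or more libraries, so no library was tested as an outlier.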

How the results depend on the processing

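Of 227 log2 fold changes of called members recomputed under the alternatives, 183 kept their direction and call, 44 kept their direction and lost the call, and 0 changed direction. The number of the 10 genes called became 0 under BH adjusted p in edgeR for MUTYH knockout, DKO, DKO against MUTYH knockout, DKO against OGG1 knockout, the interaction and H2O2, and was 0 for DKO against MUTYH knockout with the library split as a block and BH adjusted p, an alternative chosen after seeing the data. With the replicate block and BH adjusted p, also chosen after seeing the data, it was 5 for H2O2, and the replicate block alone left it at 6. It became 1 for DKO against WT and 1 for the interaction when at least 10 counts were required in every library, which removed EGR2, and 1 for the interaction in DESeq2. With each library left out in turn, it ranged from 1 to 1 for MUTYH knockout, 0 to 1 for OGG1 knockout (1 without OGG1 knockout clone 1), 1 to 2 for DKO, 2 to 4 for DKO against MUTYH knockout, 1 to 3 for DKO against OGG1 knockout, 2 to 3 for the interaction and 3 to 6 for H2O2. A lone library left in a group was assumed to vary like the others. Other scalings moved mean CPM values by at most 1.35%. Depth limited EGR2 most, with 3 to 43 counts per library.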
